A study of Drosophila melanogaster with 2 samples.

Results

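The 8 genes described here, *mmy*, *kkv*, *reb*, *exp*, *knk*, *Gasp*, *serp* and *verm*, make, assemble or modify the chitin that fills the lumen of the Drosophila trachea. They were chosen by name, and each was taken with 10 kb on each side of its gene body. They are 8 of the 13945 protein-coding genes on arms X, 2L, 2R, 3L, 3R and 4. Chromatin of whole Drosophila melanogaster embryos was immunoprecipitated with an antibody against GFP and sequenced (ChIP-seq). There were 2 samples in 1 group, biological replicates 1 and 2, from separate biosamples of 1 strain. Both carried an insertion that expresses vvl fused to eGFP, were 0 to 24 h old, and had no sex recorded. The labels name no other allele or treatment and do not say whether the fusion adds to the endogenous *vvl* gene or replaces it. A control experiment that they mention was not used here.

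Chitin is a polymer of N-acetylglucosamine. In the embryonic trachea it is laid down in the lumen as a temporary cable, which membrane-bound and secreted proteins organise while the tubes widen and lengthen, and which is cleared before the tubes fill with air. Mutants of these genes are known for tubes that are uneven in diameter or too long. vvl, also called Drifter, is a POU-domain transcription factor needed for tracheal cell migration, and it acts in neurons, midline glia and other tissues too. Since whole embryos were used, no peak can be assigned to tracheal cells.

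The data are lists of peaks, and a summit is the position of highest signal in a peak. The sequences printed here surround summits on which the description turns, in dm6 coordinates, read 5′ to 3′. Capitals mark matches to the words sought on both strands. These were the octamer ATGCAAAT and its variants ATGCTAAT and ATGCATAT, which POU proteins are known to bind, the homeodomain word TAATTA, the promoter words TATCGATA, GGTCACAC and GAGAGAG, the Grainyhead word AACCGGTT and the bHLH-PAS word TACGTG. The first 3 sequences hold the octamer within 100 bases of a summit. The first lies between *verm* and *serp* (chr3L:19700597-19700797, plus strand, with the octamer on the minus strand at bases 66 to 73). The second is inside *Gasp* (chr3R:6099072-6099272, plus strand, bases 98 to 105). The third surrounds a replicate 2 summit between *verm* and *serp* (chr3L:19699882-19700082, plus strand, bases 144 to 151). No peak of replicate 1's list overlapped that peak, but a peak of the broader list made from both replicates did. The next 2 are the 200 bases before the starts of *knk* (chr3R:10125665-10125864, minus strand) and *verm* (chr3L:19695261-19695460, minus strand). At *knk* a start peak was called in both replicates. At *verm* it was called in replicate 1, but not in replicate 2 or in the stricter list made from both. The last ends at the start of *CG1172* (chr3R:5393790-5393921, plus strand) and belongs to the highest-signal peak of the *kkv* window.
serp/verm window, octamer: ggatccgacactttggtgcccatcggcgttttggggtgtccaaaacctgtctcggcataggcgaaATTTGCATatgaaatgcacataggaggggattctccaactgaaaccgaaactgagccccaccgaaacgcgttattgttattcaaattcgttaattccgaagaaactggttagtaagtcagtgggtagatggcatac
Gasp window, octamer: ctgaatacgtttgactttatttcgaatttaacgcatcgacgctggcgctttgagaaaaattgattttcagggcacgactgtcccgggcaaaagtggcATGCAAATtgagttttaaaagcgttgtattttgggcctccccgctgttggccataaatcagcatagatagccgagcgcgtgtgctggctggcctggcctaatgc
serp/verm window, octamer, replicate 2: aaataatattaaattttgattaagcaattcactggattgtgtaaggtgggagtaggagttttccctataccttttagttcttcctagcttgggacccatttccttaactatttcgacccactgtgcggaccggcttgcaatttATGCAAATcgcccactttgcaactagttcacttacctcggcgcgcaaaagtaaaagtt
knk start, upstream: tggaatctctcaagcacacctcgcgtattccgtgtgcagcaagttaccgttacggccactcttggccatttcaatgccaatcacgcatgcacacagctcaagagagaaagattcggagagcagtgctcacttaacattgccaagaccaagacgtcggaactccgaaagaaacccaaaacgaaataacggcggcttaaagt
verm start, upstream: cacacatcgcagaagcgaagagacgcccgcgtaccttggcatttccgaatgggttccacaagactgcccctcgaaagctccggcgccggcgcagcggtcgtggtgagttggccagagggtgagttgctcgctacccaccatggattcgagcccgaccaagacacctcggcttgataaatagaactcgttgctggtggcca
kkv window, CG1172 start, upstream: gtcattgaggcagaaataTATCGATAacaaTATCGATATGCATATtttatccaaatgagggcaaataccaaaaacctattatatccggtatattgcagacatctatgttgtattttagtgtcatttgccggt

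The upstream sequences of *knk* and *verm* held none of these words, while 34.6% of the same 200-base regions of all 13945 protein-coding genes held at least 1. In the *CG1172* sequence, TATCGATA stood at bases 19 to 26 and again at bases 31 to 38. ATGCATAT stood there on the minus strand at bases 36 to 43 and on the plus strand at bases 38 to 45, so these matches overlap each other and the second TATCGATA. Of windows of that length placed the same way on all 8309 summits, 2.59% held TATCGATA and 1.87% held ATGCATAT. A match is a description of the letters and was not tested as a binding site.

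All 8 genes had at least 1 summit within 10 kb in the conservative list, the stricter of the 2 peak lists that the authors made from both replicates. The background was high, since 74.0% of all protein-coding genes had a summit by the same count. Of protein-coding genes whose windows were within 10% of a member's length, 76.2% (for *knk*) to 83.75% (for *exp*) had one. The 8 windows held 31 distinct summits. A window held a median of 4 summits, against 2 over all genes, with a median window length of 27.8 kb against 22.2 kb. Per 10 kb of window the medians were 1.15 and 0.756 summits. Counting in the broader list, all 8 genes again had a summit, with 80.4% of all genes. All 8 had one in replicate 1's own list (73.9% of all genes) and 7 in replicate 2's (73.6%), where *reb* had none. Within 2 kb of the gene body all 8 genes still had a summit, against 47.0% of all genes. The 8 gene bodies were 3.3 to 27.9 kb long, and the share at 2 kb was not matched for gene length. The windows include other genes, from 2 coding genes beside *serp*, *Gasp* and *exp* to 11 beside *kkv*. The start nearest to a summit was that of one of the 8 genes for 12 of the 31 summits and that of another gene for 19.

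**Figure D1:**
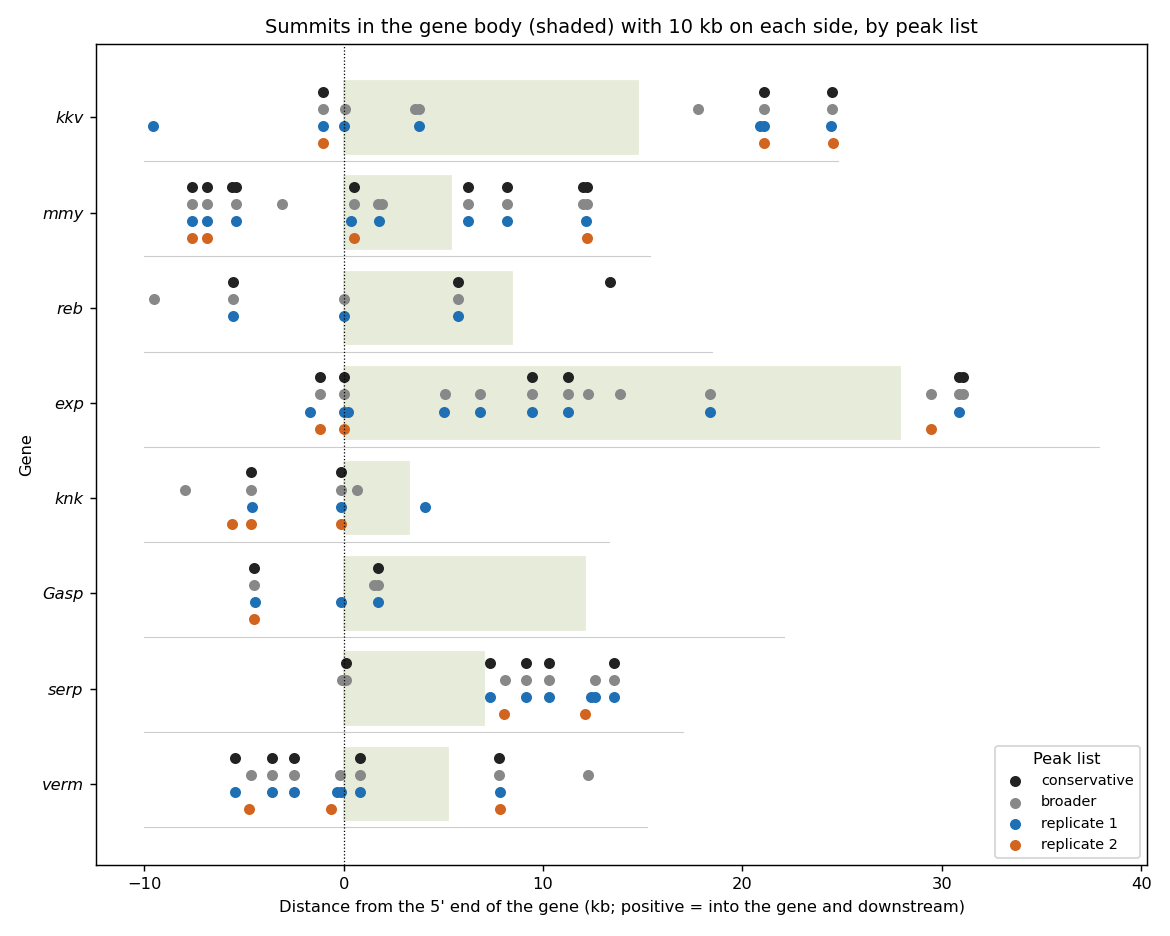
Summit positions in the 8 gene windows (rows), in kb from the 5′ end of each gene along its direction of transcription, with the gene body shaded; each point is 1 summit, and colours give the conservative list, the broader list and the lists of replicates 1 and 2. The conservative summits of *kkv* all lie outside the gene body, those of *exp* lie upstream, at its start, inside it and beyond its end, and *reb* has no summit in the replicate 2 list.

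The 31 summits had lower signals than the list as a whole. The authors' peak signal, used here only to describe and rank peaks within a list, ranged from 3.51 to 305 in the gene windows with a median of 117, against a median of 141 over all 8309 summits. Of the 31, 8 lay at or above that median, and 3 were among the 2077 summits with the highest signal. The replicates also differed more here than in the list as a whole, in a comparison not matched for signal. A peak of replicate 1's list overlapped 28 of the 31 (90.3%, against 81.5% of all peaks), and a peak of replicate 2's list overlapped 14 (45.2%, against 73.4%). Both lists overlapped 13 (41.9%), and 62.4% of all peaks. Another 15 were overlapped in replicate 1 alone, 1 in replicate 2 alone and 2 in neither. The lists of both replicates are scaled separately, and replicate 2's was shorter, with 7098 peaks against 9050. With peak lists as the only record, the sequencing depth of each sample is unknown, and its part in this difference was not tested.

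In the ranked lists, which go below the authors' threshold, peaks of both ranked lists overlapped 30 of the 31, and 99.0% of all conservative peaks. Matched more closely, a summit lay within 100 bp of 28 of the 31 in replicate 1's ranked list (90.3%, against 94.6% of all summits) and of 25 in replicate 2's (80.65%, against 90.7%). The authors' reproducibility measure is the irreproducible discovery rate (IDR), and a thresholded list holds peaks with a −log10 IDR of at least 2. That value was reached by 24 of the 31 summits in replicate 1 (77.4%, against 76.4% of all summits) and by 13 in replicate 2 (41.9%, against 67.5%).

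**Figure D2:**
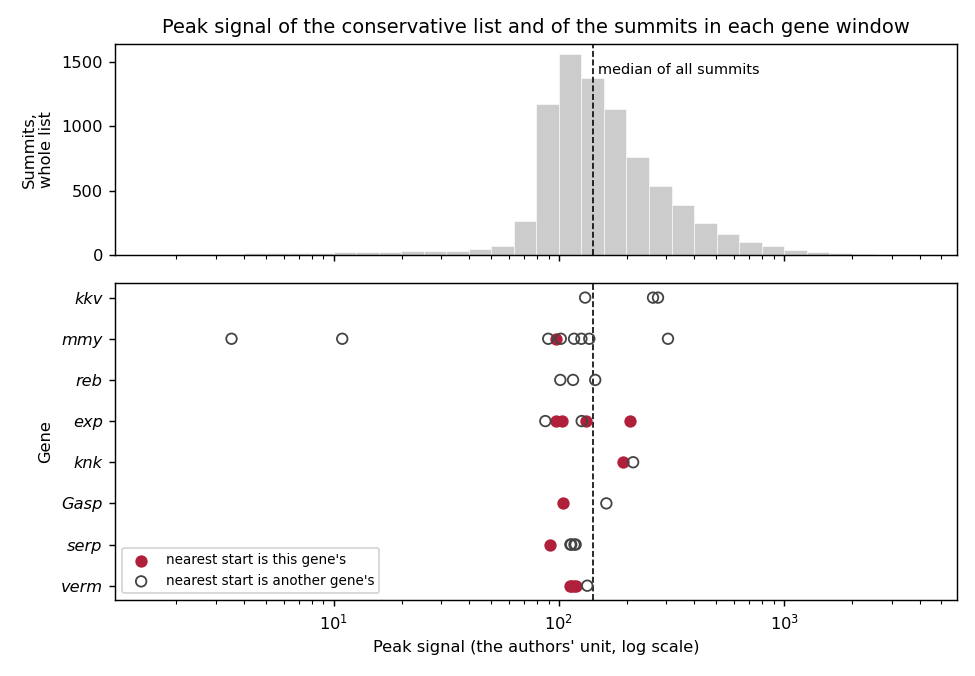
Peak signal in the conservative list on a log axis: the upper panel counts all 8309 summits per bin, and the lower panel shows each summit of each gene window, filled where the nearest transcript start is that gene's own and open where it is another gene's. The dashed line is the median of all summits, 141, and most points of *serp*, *verm*, *reb* and *mmy* lie to its left while the *knk* points and most *kkv* points lie to its right.

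Precursor synthesis is represented by *mmy* (FBgn0259749, 2L:6468538-6473904, minus strand), which encodes the UDP-N-acetylglucosamine pyrophosphorylase that makes the sugar donor for chitin. Its window held 9 summits, the most of the 8 genes and the densest at 3.55 per 10 kb. Of the 3242 protein-coding genes whose windows were within 10% of its length, 31 (0.956%) had at least as many, and their median was 2. Replicate 1's own list held 8 summits there and replicate 2's 4, and 5 of the 9 peaks were overlapped in both lists. Most of these summits lay at other genes. The highest-signal peak (2L:6480638-6480833, signal 305, rank 1165 of 8309) had its summit 163 bp from a start of *Daxx*, which encodes a histone chaperone, and had a signal of 160 in replicate 1 and 134 in replicate 2. Others were 16 bp from *Rchy1* (126) and 22 bp from *HemK1* (102), with 2 more inside *Rchy1* (89.6 and 3.51), 2 inside *Sec61alpha* (136 and 10.9), which encodes a subunit of the endoplasmic reticulum translocon, and 1 nearest to lncRNA:CR45463 inside *Daxx* (117). The neighbouring pairs inside *Rchy1* and *Sec61alpha* overlapped, so the 9 summits are not 9 separate regions. The only summit inside *mmy* lay in an intron, 505 bp from a start (2L:6473201-6473596, signal 97.1, rank 6658). It had a signal of 32.1 and a −log10 IDR of 2.44 in replicate 2, and no summit within 100 bp in replicate 1, whose own list had a summit 369 bp from that start instead (65.6).

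The chitin synthase gene *kkv* (FBgn0001311, 3R:5378093-5392866, minus strand) encodes the enzyme that polymerises chitin at the apical membrane. All 3 of its conservative summits passed in both replicates, and each lay at the start of another gene. The highest (3R:5393795-5393971, signal 275, rank 1370) was 32 bp from the start of *CG1172* and 1024 bp upstream of the *kkv* start, with 196 in replicate 1 and 97.9 in replicate 2. This is the peak whose sequence is printed above. The next (3R:5371650-5371866, signal 262) was 21 bp from *Polr2F*, which encodes a subunit shared by RNA polymerases, and had 106 in replicate 1 and 157 in replicate 2. The weakest (3R:5368158-5368553, signal 131) was 50 bp from the ceramide kinase gene *Cerk*, with 65.9 and 74.6. Of genes with windows of similar length, 50.8% had at least 3 summits. At *kkv*'s own start, a peak 52 bp inside the gene had a signal of 90.6 and a −log10 IDR of 1.69 in the conservative ranked list. It was called in the broader list and in replicate 1, where the value was 2.42 with a signal of 63.8, and it was at 0.168 in replicate 2 with a signal of 24.5. The broader list and replicate 1 also held a summit in a *kkv* intron, nearest to the start of tRNA:Arg-TCG-4-1, with signals of 73.4 and 61.5.

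*reb* and *exp* encode related membrane-associated proteins that act with *kkv* in depositing chitin and are needed redundantly. They lie head to head, 26.8 kb apart, with 2 lncRNA genes between them (FBgn0033667, 2R:11904323-11912779, minus strand, and FBgn0033668, 2R:11939557-11967435, plus strand), and their windows shared no summit. *reb* had 3 conservative summits and *exp* 6, and 47.0% and 29.6% of genes with similar windows had at least as many. None of the 3 *reb* peaks was overlapped in replicate 2's list. The strongest, in a *reb* intron and 3106 bp from the nearest start, that of *MCPH1* (2R:11906826-11907221, signal 145), had 99.5 in replicate 1 and 38.01 in replicate 2, with −log10 IDR values of 3.09 and 1.96. The one upstream of *reb* was 431 bp from lncRNA:CR44305 (115.5), carried the octamer, and was at 2.43 and 1.95. The one beyond its 3′ end was 122 bp from the start of the zinc transporter gene *Zip48C* (101), and passed in neither replicate, at 1.84 and 0.542. In replicate 2, 2 of the 3 *reb* values were thus just under the threshold of 2.

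Of the 4 genes of chitin synthesis, only *exp* had a conservative summit within 500 bp of its own start. That peak (2R:11939368-11939763, signal 132, rank 4590) had its summit 9 bp inside the gene and passed in both replicates, with a signal of 73.7 and a −log10 IDR of 2.78 in replicate 1 and 44.4 and 2.03 in replicate 2. A summit 1187 bp upstream (97.4) passed in replicate 2 at 2.21 and not in replicate 1 at 1.96. The strongest peak of the window lay in an *exp* intron 11251 bp from the start (2R:11950610-11951005, signal 207, rank 2257). It was the most unequal of the *exp* peaks, with 163 and a −log10 IDR of 4.07 in replicate 1 against 29.4 and 0.167 in replicate 2. Another intron summit, 9426 bp from the start, held the octamer (103) and was at 2.20 and 0.231. The remaining 2 (126 and 87.0) overlapped each other near the start of *ADD1*, beyond the 3′ end of *exp*. In the broader list *exp* had 12 summits, the most of the 8 genes there.

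Assembly of the cable is represented by *knk* and *Gasp*. *knk* (FBgn0001321, 3R:10122365-10125664, minus strand) encodes a DOMON-domain protein that organises and protects chitin, and it had the strongest peak at a start of its own. Its 2 conservative summits both lay upstream and both passed in each replicate. The promoter peak (3R:10125575-10125970, signal 192, rank 2557) had its summit 109 bp before the start, with a signal of 156 and a −log10 IDR of 4.03 in replicate 1 and 46.4 and 2.37 in replicate 2. The other peak (3R:10130188-10130356, signal 214, rank 2156) lay in an intron of *tws*, which encodes a regulatory subunit of protein phosphatase 2A, 4622 bp upstream of the *knk* start. It had 131 in replicate 1 and 70.3 in replicate 2, and the sequence around its summit was the poorest in G and C of the 31, at 28.4%, against medians of 43.8% for the 31 and 38.8% for all summits. With 2 summits *knk* was at the median of genes of similar window length.

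*Gasp* (FBgn0026077, 3R:6088799-6100887, minus strand) encodes a secreted chitin-binding protein of the lumen. It had 2 conservative summits, fewer than the median of 3 for genes of similar window length, and at 0.623 per 10 kb the lowest density of the 8 genes. The octamer peak printed above lay in its intron, 1715 bp from the start (3R:6098974-6099369, signal 104, rank 6203), and its summit lay within the octamer itself. It passed in replicate 1, at 72.1 and a −log10 IDR of 2.77, and not in replicate 2, at 35.5 and 0.776. The peak 4478 bp upstream (3R:6105167-6105562, signal 162, rank 3392) was 502 bp from lncRNA:CR44929, held TAATTA, and passed in both replicates with 103 and 58.4. *Gasp* had no summit within 2 kb upstream in the conservative list, and its own start peak, called in replicate 1 alone, is described with the other starts.

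*serp* and *verm* encode secreted chitin deacetylases that limit tube length. They are neighbours transcribed in the same direction, *serp* first (FBgn0260653, 3L:19700977-19708015, minus strand) and then *verm* (FBgn0261341, 3L:19690033-19695260, minus strand), with 5.72 kb and no other gene between them. Each window held 5 conservative summits, of which 4 were shared, so the pair had 6 distinct summits and its counts are not independent. Of genes with windows of similar length, 16.7% and 14.3% had at least 5. The signals were low and even, from 91.6 to 134, all under the list median of 141.

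The stretch between *serp* and *verm* held 3 of these summits, and all 3 passed in replicate 1 and none in replicate 2. The one nearest to *verm* (3L:19697535-19697930, signal 113) had 96.5 in replicate 1 and no summit within 100 bp in replicate 2. The middle one (3L:19698646-19699041, signal 117) had 73.5 and 40.0, with −log10 IDR values of 2.68 and 1.36. The one nearest to *serp* (3L:19700499-19700894, signal 119, rank 5286) holds the first octamer sequence printed above, and had 96.9 and a −log10 IDR of 3.31 in replicate 1 and no matching summit in replicate 2. Replicate 2's list had its own octamer peak 715 bp away, with a summit signal of 63.8 at rank 3765 of 7098, for which the conservative list had no match. That list also held a weak peak in the stretch with its summit 642 bp from the *verm* start (3L:19695754-19696049, signal 16.7, rank 6944 of 7098). The broader list lacked the conservative octamer summit and had a summit 798 bp from it (3L:19699701-19700096, signal 85.7). That broader peak overlapped the replicate 2 peak (3L:19699834-19700129) and covered its octamer, which lay more than 100 bp from the broader summit. So the stretch was marked in every list, but the octamer summits of the replicates were at different positions.

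Outside that stretch, a summit in the *verm* intron 816 bp from its start (3L:19694246-19694641, signal 112) passed in replicate 1 at 2.72 and not in replicate 2 at 1.42. The only peak of the pair that passed in both replicates lay beyond the 3′ end of *verm*, 97 bp from the start of *CG8765* (3L:19687252-19687647, signal 134), with 68.4 and 71.1. The *serp* start peak (3L:19707707-19708102, signal 91.6, rank 7025) was 110 bp inside the gene. It reached the threshold in the conservative list, with a −log10 IDR of 2.29, while its values in the replicates' own lists were 0.332 and 0.839.

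**Figure D3:**
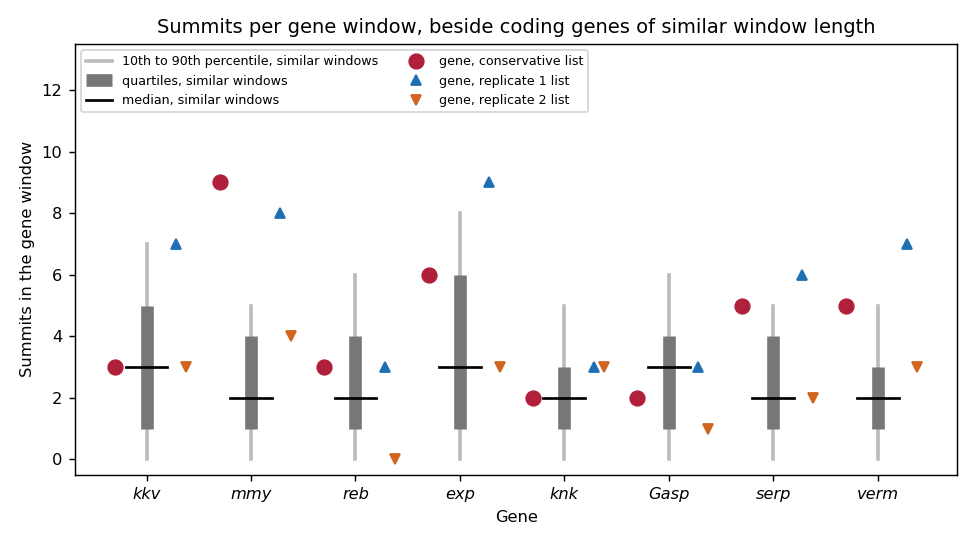
Summits per gene window in the conservative list (circles) and in the lists of replicate 1 (upward triangles) and replicate 2 (downward triangles), beside protein-coding genes whose windows are within 10% of the same length (line for the 10th to 90th percentile, bar for the quartiles, tick for the median). In the conservative list, from which the ranges were taken, *mmy*, with 9 summits, lies above the range shown and the other 7 genes lie within it. Replicate 2 has fewer summits than replicate 1 in 7 windows and the same number, 3, in the *knk* window.

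The starts of the 8 genes showed how much these calls depend on the list. A conservative summit lay within 500 bp of a transcript start of the gene itself for 3 of the 8, *knk*, *serp* and *exp*, and for 28.7% of all protein-coding genes. In the broader list it was 7 of 8, all but *Gasp* (35.1% of all genes). In replicate 1 it was 7 of 8, all but *serp* (27.8%), and in replicate 2 it was 2 of 8, *knk* and *exp* (27.4%). In at least 1 of these lists all 8 had such a summit, and 38.2% of all genes. This count was added after the values had been seen.

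In the longer ranked lists, a peak lay within 500 bp of a start of all 8 genes in both replicates, but the background was high there. Such a peak was found for 64.9% of all protein-coding genes in replicate 1, for 72.3% in replicate 2 and for 58.2% in both. *knk* and *exp* passed in the conservative list and in each replicate. *verm* was the most unequal. Its peak 160 bp before the start had a signal of 157, rank 3709 of the 81948 ranked peaks, but a −log10 IDR of 0.293. In replicate 1 a peak at 142 bp had 128 (rank 2270 of 73622) and 3.81, and in replicate 2 the peak was at 41 bp with 24.2 (rank 17210 of 90260) and 0.868. The *verm* peak thus failed the conservative list with a higher signal than the *exp* start peak that passed it. *mmy* has 2 starts, and its highest-signal peak was at the inner start in the conservative list (91 bp, 1.88) and in replicate 2 (96 bp, 1.87), just under the threshold. In replicate 1 it was a different peak, at the outer start (369 bp), just over the threshold at 2.01. The conservative list and replicate 2's list had summits 505 and 541 bp from that outer start, just beyond the 500 bp counted here. *Gasp* was close to the threshold as well, at 1.97, 2.16 and 1.64, and *reb* was at 1.91, 2.56 and 1.07. Where a start is named as unmarked in 1 list, the value can lie this close to the threshold.

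**Figure D4:**
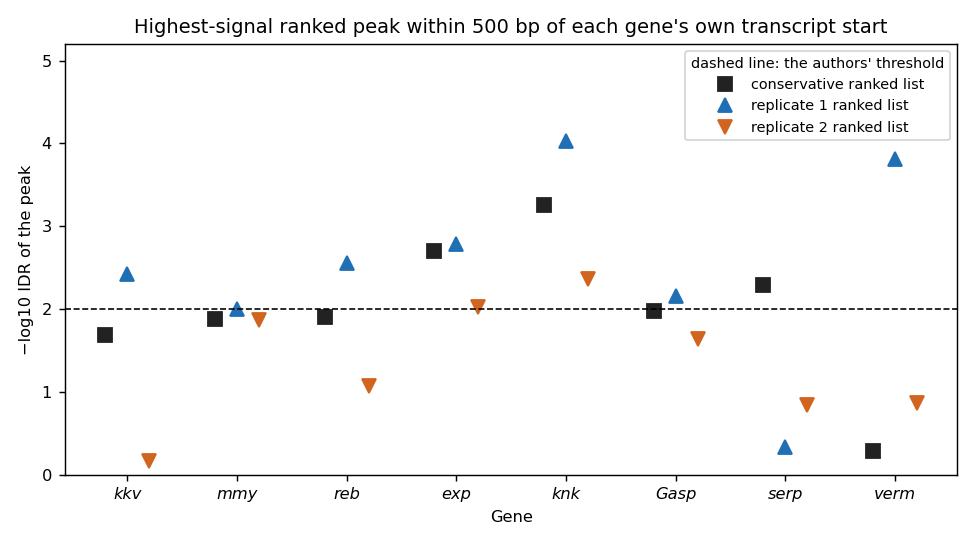
The −log10 IDR (vertical axis) of the highest-signal ranked peak within 500 bp of each gene's own transcript start, in the conservative ranked list (squares) and in the ranked lists of replicate 1 (upward triangles) and replicate 2 (downward triangles), with the authors' threshold of 2 as a dashed line. Only *knk* and *exp* have all 3 values above the line, for *serp* only the conservative value lies above it, and for the other 5 genes only the replicate 1 value does; the peak can differ between lists, as at *mmy*.

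By location, the 31 summits resembled the list. Within 500 bp of a transcript start of any gene lay 14 (45.2%, against 45.9% of all summits), in introns 12 (38.7%, against 36.2%) and between genes 5 (16.1%, against 14.9%), with none in exons or UTRs farther than 500 bp from a start. The octamer lay within 100 bp of 4 of the 31 summits (12.9%), and of 6.68% of all 8309. These 4 were the *Gasp* intron summit, the summit between *serp* and *verm*, the one upstream of *reb* and the *exp* intron summit, and the peaks of all 4 were overlapped in replicate 1's list and none in replicate 2's. Of all 31, 15 were overlapped in replicate 1 alone, and the split was not counted for the 555 octamer summits of the whole list. Any of the 3 POU words was found at 5 summits (16.1%, against 11.3%). TATCGATA was found at 3 (9.68%, against 3.80%), TACGTG at 3 (9.68%, against 4.57%), GGTCACAC at 2 (6.45%, against 3.02%), TAATTA at 4 (12.9%, against 15.6%) and GAGAGAG at 1 (3.23%, against 5.98%). ATGCTAAT and AACCGGTT were found at none, with 2.64% and 0.385% of all summits. With 31 summits, each of these shares rests on a handful of regions.

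Other genes of the same pathways were counted in the same way, 70 genes in 5 roles. Of these, 58 had a conservative summit within 10 kb (82.9%, against 74.0% of all genes), with a median of 2 summits. Their windows ranged from 20.7 to 156.8 kb. Neither this share nor those of the roles below was matched for window length. In chitin synthesis, 5 of 7 had a summit: *Gnpnat*, which encodes glucosamine-phosphate N-acetyltransferase, *Hex-A*, *nst*, *Pgi* and *Gfat2*, but not *Gfat1* or *Chs2*, the second chitin synthase gene. The peak in the *Gnpnat* window was among the strongest of the list (2557, rank 5), but lay 103 bp from the start of *CG7601*. The best peaks were 1193 for *Hex-A* (rank 73, with the octamer, 694 bp from *LPCAT*), 540 for *nst* (192 bp from *ver*), 273 for *Pgi* (25 bp from *CG30349*) and 260 for *Gfat2* (105 bp from *larp*). All 5 thus had their best peak nearest to the start of another gene.

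In chitin assembly and binding, 10 of 15 genes had a summit (66.7%). The strongest was at *Cda4*, a chitin deacetylase gene (673, rank 246, 1503 bp from its start), followed by a peak shared by the windows of *obst-A* and *Peritrophin-A* (491, rank 461, 770 bp from lncRNA:CR45465). In chitin turnover it was 16 of 19 (84.2%), led by the windows of the chitinase genes *Cht2* (1360, rank 49, 139 bp from *CG13921*) and *Cht7* (1169, rank 78, 112 bp from *PAN3*). Some of these 16 genes are neighbours whose windows shared their best peak, so this count and the total of 58 are not of independent genes. Of the lumen and apical matrix genes it was 6 of 7 (85.7%): *pio* (453), *dpy* (348), *conv* (330), *Tb* (251, with the octamer), *uif* (188) and *TwdlX* (120, with the octamer), but not *Muc4B*. Only the *Tb* peak was nearest to a start of its own gene. That of *pio* was 32 bp from *CG4707*, and that of *TwdlX* 171 bp from *TwdlY*. *pio* and *dpy* encode zona-pellucida-domain proteins of the luminal matrix. Of the septate junction genes, whose junctions are needed for secretion of *serp* and *verm* into the lumen, 21 of 22 had a summit (95.5%), and *l(2)gl* had none. The windows of *vari* (641, rank 270, nearest to *CG9328* at 3921 bp) and *Tsf2* (540, rank 384, the peak at *ver* that the *nst* window also holds) led these. The highest signal in any window of the 8 lumen chitin genes, 305 at rank 1165, was lower than each of the leading peaks of these 5 roles. Of these leading peaks, 2 per role, only that at *Cda4* was nearest to a start of the gene whose window held it. Other genes among the 70, such as *Tb*, also had their best peak nearest to a start of their own. The roles hold different numbers of genes, so the leading signals do not compare the genes themselves.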

How the data were processed

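Chromatin immunoprecipitation for vvl-eGFP was measured in 2 biological replicates of whole embryos, with chromatin sonicated to 200 to 800 bp, per the labels. The data comprise 8 deposited lists of peaks (dm6 coordinates): a conservative and a broader list of the series, derived from both replicates' alignments, and each replicate's own, all in a thresholded and a ranked form. Which aligner and peak caller were used is not given in the sources used here, nor are versions. Each peak has the authors' signal, their score (830 to 1000 in the thresholded lists), a summit and, in the ranked lists, the −log10 of its IDR. The thresholded lists hold ranked peaks with an IDR of 0.01 or less, and 184 ranked peaks at or under it are absent from the conservative list, none of them in the windows described. Lists carry no read counts, so depth is unknown and no interval was given.

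Summits were counted in gene bodies with 10 kb on each side (Ensembl release 115 without transposable elements, Release 6 assembly), once per gene window. A summit was a promoter summit within 500 bp of any transcript start. Peaks overlapped from 1 bp, a replicate's value at a summit is that of the closest one in its ranked list, at most 100 bp away, and words were sought within 100 bp of summits. Besides the 9 words given, AACATGTA and TAAACGTA were sought as composition controls and were found at 0 of the 31 summits (0.915% and 0.722% of all). With 1 group there was no comparison of conditions and no test was run, since summits and genes are not replicates. The genes, the lists of other genes and the words were chosen with earlier results of these data known. Of 71 listed other genes, 1 symbol was not matched and 1 was matched through a synonym. Named are the 8 genes, every gene with the start nearest to one of their summits and, per role, the genes with the 2 strongest summits, or all genes in roles of 8 or fewer. *PI31*, *CG2663*, tRNA:Arg-TCG-4-1 and the genes nearest to other genes' peaks fall outside this rule and were chosen after their values were seen. Scripts ran in Python 3.11.15 with numpy 2.4.6, pandas 2.3.3 and matplotlib 3.10.9, and were tested on made-up peaks. Alternatives were other lists, windows, thresholds, word windows and overlaps.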

Additional observations from a re-analysis of the deposited data

How the results depend on the processing

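The 8 genes kept a summit in every list and window tried except replicate 2's list (7), the gene body alone (6), the 4154 summits of higher signal (6), summits within 1 kb of the gene's own transcript starts (5) and an IDR of 0.001 or less (5). Of all protein-coding genes, 73.6%, 17.4%, 58.8%, 32.8% and 58.9% had one under the same alternatives, in that order. Summits in the windows of the 8 genes numbered 31, and 50 in the broader list, 22 within 5 kb, 13 within 2 kb, 8 in gene bodies, 5 within 1 kb of the genes' own starts, 8 among the summits of higher signal and 7 at an IDR of 0.001. Leaving out a replicate, by using the other's own list, gave 17 to 40 summits, 1 to 6 with the octamer against 4, and 2 to 7 genes with a summit at their own start against 3. The broader list gave 7 for the last. Replicate 1's list gave the higher count each time and replicate 2's the lower, and the cause was not tested. Peaks overlapped in both replicates went from 13 to 30 with ranked lists. Other chitin and lumen genes with a summit went from 58 to 34 within 1 kb of their own starts and 24 in gene bodies, and all protein-coding genes from 10323 to 6556 within 2 kb, 4571 and 2433. Of the counts per gene under these alternatives, 47 moved by over 1.5 times and 25 did not. No paired analysis was possible because there was 1 group. Peak lists do not give depth, and its part in the calls that failed in replicate 2 was not tested.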

Other observations

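The lists differed in which summits they held near the 8 genes, beyond their length. Replicate 1 alone had an octamer summit in an intron of *CG2663* in the *kkv* window (69.7, rank 6058 of 9050), which no other thresholded list had. Replicate 1 and the broader list had an octamer summit inside *exp*, 10723 and 10720 bp from the nearest start, that of *PI31* (69.0 and 72.0), which was not in the conservative list. In replicate 2, a peak 185 bp from the *PI31* start (41.5), also in the broader list (81.7), stood beyond the 3′ end of *exp*. These genes were chosen after their values were seen.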
